A study of Mus musculus with 8 samples.

Results

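The mouse genome has 3 genes for retinoic acid receptors (Rara, Rarb and Rarg) and 3 for retinoid X receptors (Rxra, Rxrb and Rxrg), and these 6 genes were followed through 8 mRNA libraries. They were chosen by their symbols among the 55421 genes of the deposited count table. Each symbol was found, and all 6 passed the filter on low counts, which kept 20588 genes. The libraries came from SSC cultures, which are primary cultures of undifferentiated spermatogonia, here on a C57BL/6XDBA/2 background and kept with bFGF and GDNF on a feeder layer of irradiated mouse embryonic fibroblasts from CF1 mice. Cultures of 2 genotypes, labelled STRA8KO and SPO11KO, received vehicle (Veh) or NRRA, a nutrient restriction medium to which retinoic acid was added. Each of the 4 groups had 2 libraries. Per the study, the nutrient restriction medium was culture medium diluted with a salt solution, so bFGF, GDNF and serum were diluted as well. Retinoic acid came with this medium, so the parts of nutrients, growth factors and retinoic acid cannot be told apart. Wild-type cultures were not analysed here.

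Retinoic acid, the active form of vitamin A, acts through receptors of the nuclear receptor family. A RAR binds retinoic acid and sits on DNA as a pair with an RXR, on sites made of repeated short half-sites in the same orientation. Without ligand the pair holds corepressors at the gene, and ligand exchanges them for coactivators. RXRs also pair with many other nuclear receptors, among them those for vitamin D, thyroid hormone, oxysterols and fatty acids. In the testis, retinoic acid drives spermatogonia to differentiate and to enter meiosis. Rarg is known from differentiating spermatogonia, Rara from Sertoli cells as well as germ cells, and Rarb is a classical target gene of retinoic acid in many cell types.

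The promoter of Rarb held a direct repeat of the kind that RAR and RXR pairs are known to bind. Of 13 RefSeq promoter windows of the 6 genes (assembly GRCm38.p6, 250 bases before to 50 after a start), the Rarb window alone held a pair of half-sites at the spacings searched. The half-sites were the consensus AGGTCA, its variant AGTTCA, the further variant GGGTCA and, with both changes, GGTTCA, all read on both strands, as direct repeats with 1, 2 or 5 bases between them. The spacer of 5 bases was found in 32 of 32544 distinct promoter windows (0.0983%), that of 1 base in 0.224% and that of 2 bases in 0.27%. The Rarb window lies inside the span of the gene, and its start is 4 bases from a start of the GENCODE annotation. The bases from -250 to -6, counted from that start on the minus strand (chr14:16575482-16575726), are shown because they hold the repeat, which is in capitals:
Rarb promoter: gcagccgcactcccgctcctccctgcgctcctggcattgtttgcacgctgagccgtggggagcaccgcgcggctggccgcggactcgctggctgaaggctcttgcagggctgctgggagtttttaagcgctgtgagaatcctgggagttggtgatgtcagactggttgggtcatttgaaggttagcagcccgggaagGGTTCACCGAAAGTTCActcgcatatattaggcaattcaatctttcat

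The repeat spans bases -53 to -37 of the promoter (chr14:16575513-16575529). Among the windows of the 12 retinoic acid response genes described further on, that of Cyp26a1, which encodes an enzyme that breaks down retinoic acid, held the same kind of repeat. It lies on the strand opposite to the gene, at bases -32 to -16 (chr19:37697776-37697792). Written along their own strands, both repeats end in the same half-site:
Rarb repeat: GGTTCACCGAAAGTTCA
Cyp26a1 repeat: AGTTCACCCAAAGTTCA
Such a match is a description of the letters, and binding was not measured. The half-sites and spacings searched were of the kind that RAR and RXR pairs are known to bind. Rarb is a classical target gene of retinoic acid, so its match is no independent evidence of regulation. No window was found in the table for Crabp2, Cdx1 and Tgm2, among others of the list.

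The libraries were deep and close to each other within a group. Totals ran from 20960794 to 27038868 counts, and the common biological coefficient of variation was 3.39%. Levels are given as CPM, the count of a gene relative to its library total after scaling with TMM (trimmed mean of M values), as mean ± SD with n = 2. Changes are log2 fold changes with their standard error (SE), from edgeR's quasi-likelihood test across all tested genes, and a gene is called at a Benjamini-Hochberg adjusted p under 0.05. Counts of Stra8 were 2 and 0 in STRA8KO Veh, and 169 and 170 in STRA8KO NRRA, against 12604 and 16191 in the NRRA libraries labelled SPO11KO. Spo11 had 31 to 68 counts in the STRA8KO libraries and 72 to 148 in those labelled SPO11KO. Gene counts therefore did not check the SPO11KO label, and every direction between genotypes below rests on it.

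The cultures were mixtures of germ cells and feeder cells, and markers of both differed between the genotypes. All 16 fibroblast markers and all 8 pan-germ genes (Ddx4, Dazl and others) were tested. In both media all 16 fibroblast markers were higher in STRA8KO and all 8 pan-germ genes were lower. Called higher and lower there were 31.5% and 30.7% of tested genes in Veh, and 35.2% and 29.1% after NRRA. The fibroblast markers took 2.46% to 2.53% of counts in STRA8KO Veh, 4.05% to 4.09% in STRA8KO NRRA, 1.41% to 1.42% in Veh labelled SPO11KO and 2.37% to 2.48% in NRRA labelled SPO11KO. The pan-germ genes took 0.0668%, 0.0749% to 0.0784%, 0.149% to 0.153% and 0.183% to 0.187% in the same order. Of 6 Sertoli cell markers, 3 (Amh, Amhr2 and Cldn11) did not pass the filter on low counts, while Sox9, Wt1 and Gata4 did. Under NRRA Sox9 went from 37.86 ± 3.7 to 15.55 ± 0.0576 CPM (SD, n = 2) in STRA8KO. In SPO11KO-labelled cultures Sox9 went from 30.07 ± 2.09 to 10.33 ± 0.639 CPM (SD, n = 2). Wt1 rose from 3.828 ± 0.215 to 12.01 ± 0.0543 CPM (SD, n = 2) in STRA8KO, and was not called in SPO11KO-labelled cultures. The cell type behind these levels was not tested. Together the 6 markers took at most 0.0043% of counts. The 5 macrophage markers took at most 0.00584%. In such bulk RNA, fewer cells of a type and less RNA per cell cannot be told apart, and a receptor transcript cannot be assigned to germ cells or feeder cells.

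NRRA raised Rarb and lowered Rxra and Rxrg in both genotypes, and with TMM scaling the other 3 receptors stayed within 1.29-fold of their Veh level. Rarb rose 44.1-fold in STRA8KO and 48.5-fold in SPO11KO-labelled cultures. Rxrg fell steeply in SPO11KO-labelled cultures, to a ratio of 0.0825, and less in STRA8KO, to a ratio of 0.647. In STRA8KO 5 of the 6 receptors were called, where 41.5% of all tested genes were called. Of these 3 were higher and 2 lower, against 21.4% and 20.1% of tested genes. In SPO11KO-labelled cultures all 6 were called, against 50.3% of tested genes, 4 of them higher and 2 lower, against 24.7% and 25.5%. With a change of at least 2-fold also asked for, 1 receptor was called in STRA8KO, against 10.6% of tested genes, and 2 were called in SPO11KO-labelled cultures, against 12.4%. Calls were thus common in these data, and the size of a change separates the receptors better than the call does.

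**Figure D1:**
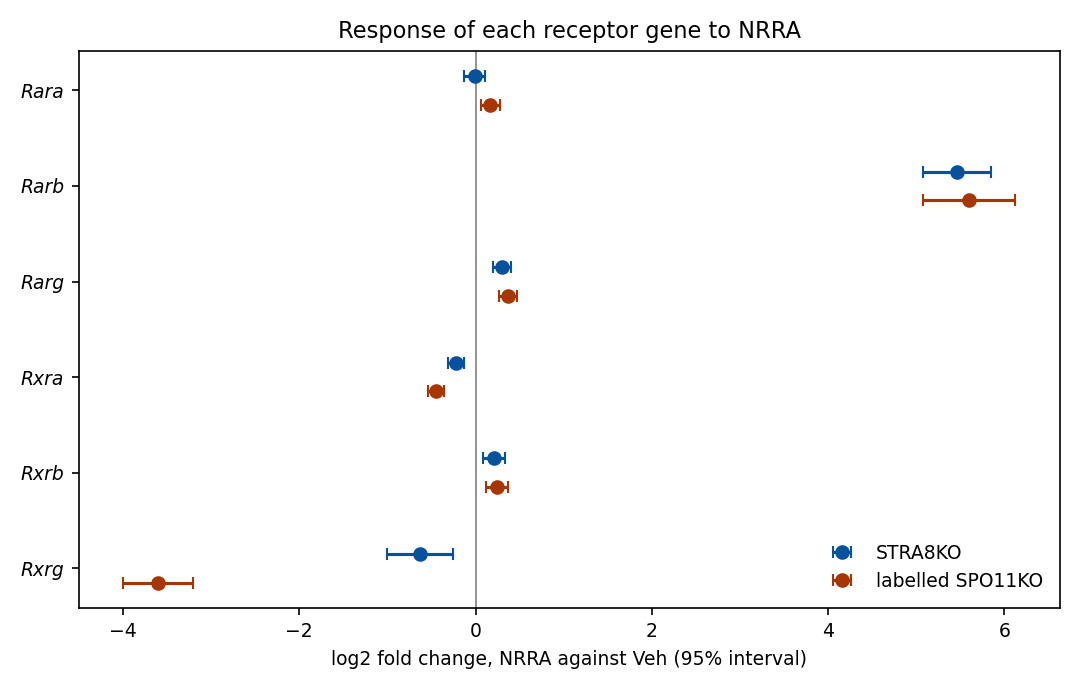
Log2 fold change of each receptor gene between NRRA and Veh (x axis), with its 95% interval, in STRA8KO (blue) and in cultures labelled SPO11KO (brown). Rarb lies at 5.46 and 5.60, Rxrg at -0.63 and -3.60, and the other receptors between -0.45 and 0.37, where the signs of Rara, Rarg and Rxrb depended on the scaling.

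Rarb (ENSMUSG00000017491, chr14:16430839-16819156, minus strand, GRCm38, 11 merged exons) was the receptor with the lowest level in Veh. Its counts in STRA8KO were 12 and 13 with vehicle and 530 and 588 with NRRA. Under the SPO11KO label they were 6 and 5 with vehicle and 268 and 377 with NRRA. Every NRRA library thus lay far above every Veh library, and the STRA8KO libraries lay above the libraries labelled SPO11KO in the same medium. In CPM, STRA8KO went from 0.596 ± 0.0834 to 26.4 ± 1.1 (SD, n = 2), and SPO11KO-labelled cultures from 0.235 ± 0.0248 to 11.6 ± 1.78 (SD, n = 2). The rise was 5.46 (log2, SE 0.189, edgeR adjusted p 5.17e-26) in STRA8KO and 5.60 (log2, SE 0.259, edgeR adjusted p 1.22e-21) in SPO11KO-labelled cultures. Its size in the genotypes differed by -0.13 (log2, SE 0.535), with a 95% interval of -1.22 to 0.95 and an edgeR adjusted p of 0.897. With so few counts in Veh, a difference in the rise of up to about that width was not detectable.

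The fibroblast markers did not move as one under NRRA. In STRA8KO 11 of the 16 rose, 4 fell and 1 was not called, where 21.4% of tested genes rose and 20.1% fell. In SPO11KO-labelled cultures 12 rose and 4 fell, where 24.7% of tested genes rose and 25.5% fell. The medians of the 16 were 0.63 and 0.48 (log2). Collagen genes such as Col1a1 rose (1.46 and 1.32 in log2), while Fn1 had -0.42 and -0.38 and S100a4 had -2.17 and -1.66. Relative to the summed markers Rarb still rose by 4.75 (log2) in STRA8KO and by 4.93 (log2) in SPO11KO-labelled cultures, and relative to the pan-germ genes by 5.27 and 5.39. Of the bases in exons of Rarb, 2020 also lie in exons of genes on the other strand, Top2b (topoisomerase II beta) and the predicted gene Gm48162. The study's methods describe a library preparation that keeps strand, but whether the counting used it is not given in the sources used here. Top2b went from 102 ± 0.729 to 130 ± 4.24 CPM (SD, n = 2) in STRA8KO, and rose by 0.35 (log2, SE 0.0484) there and by 0.46 (log2, SE 0.0504) in SPO11KO-labelled cultures. If the counting did not use strand, reads of the shared bases could have been dropped or counted for both genes, and which applies is not given. If counted for both, the 5 to 13 Rarb counts in Veh could hold some of Top2b. If dropped, Rarb would be counted too low, also in its levels per kilobase and shares of the RAR family below.

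Rarb also differed between the genotypes. After NRRA it was higher in STRA8KO by 1.18 (log2, SE 0.0957, edgeR adjusted p 4e-14). In Veh it was higher by 1.31 (log2, SE 0.573, edgeR adjusted p 0.0449), a call that rested on 5 to 13 counts and was lost without any 1 of the 4 Veh libraries (1.17 to 1.46 in log2) and without STRA8KO NRRA replicate 2 (1.31, edgeR adjusted p 0.0509). It was also lost with total counts (1.20, edgeR adjusted p 0.0667) and with no filter on low counts (1.32, edgeR adjusted p 0.0859). These differences moved with the share of fibroblast markers, which was also higher in STRA8KO. Relative to those markers the difference was 0.22 (log2, SE 0.0989, edgeR adjusted p 0.0366) after NRRA and 0.40 (log2, SE 0.607, edgeR adjusted p 0.562) in Veh.

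Rarg (ENSMUSG00000001288, chr15:102234938-102257517, minus strand) was the RAR with the highest level in every library. It had 107 and 105 CPM in STRA8KO Veh and 126 and 135 CPM in STRA8KO NRRA. It had 72.7 and 67.7 CPM in Veh labelled SPO11KO and 93.8 and 87.5 CPM in NRRA labelled SPO11KO. The 4 groups did not overlap, with STRA8KO NRRA the highest and Veh labelled SPO11KO the lowest. With TMM scaling Rarg rose under NRRA by 0.30 (log2, SE 0.0497, edgeR adjusted p 2.92e-06) in STRA8KO and by 0.37 (log2, SE 0.0515, edgeR adjusted p 8.72e-08) in SPO11KO-labelled cultures, but relative to fibroblast markers it had -0.41 and -0.32. Relative to pan-germ genes the values were 0.10 (edgeR adjusted p 0.178) and 0.17 (edgeR adjusted p 0.0292). Between the genotypes it was higher in STRA8KO by 0.60 (log2, SE 0.0519) in Veh and by 0.53 (log2, SE 0.0493) after NRRA. Relative to the fibroblast markers, those differences turned to -0.34 and -0.43.

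Rara (ENSMUSG00000037992, chr11:98927818-98974942, plus strand) varied least of the 6. Its levels were 57.9 and 56.6 CPM in STRA8KO Veh and 56.8 and 57.05 CPM in STRA8KO NRRA. They were 58.9 and 54.04 CPM in Veh labelled SPO11KO and 63.2 and 63.7 CPM in NRRA labelled SPO11KO. The NRRA libraries labelled SPO11KO lay above the rest, and the other 3 groups overlapped. Rara changed under NRRA by -0.01 (log2, SE 0.0578, 95% interval -0.13 to 0.11, edgeR adjusted p 0.923) in STRA8KO and rose by 0.17 (log2, SE 0.055, edgeR adjusted p 0.00983) in SPO11KO-labelled cultures. In STRA8KO Rara was called lower relative to fibroblast markers (-0.72, edgeR adjusted p 9.41e-22) and to pan-germ genes (-0.21, edgeR adjusted p 0.00941). In SPO11KO-labelled cultures the rise turned to -0.03 relative to the pan-germ genes and to -0.52 relative to fibroblast markers. Between the genotypes, the NRRA effects on Rara differed by -0.18 (log2, SE 0.0799, edgeR adjusted p 0.107), and this was called without replicate 1 of Veh labelled SPO11KO (-0.24), without replicate 1 (-0.27) or 2 (-0.24) of NRRA labelled SPO11KO, with total counts (-0.27) and with no filter on low counts (-0.24). After NRRA Rara was lower in STRA8KO by -0.16 (log2, edgeR adjusted p 0.0134), but without STRA8KO NRRA replicate 1 or 2 the edgeR adjusted p was 0.058 or 0.0512.

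**Figure D2:**
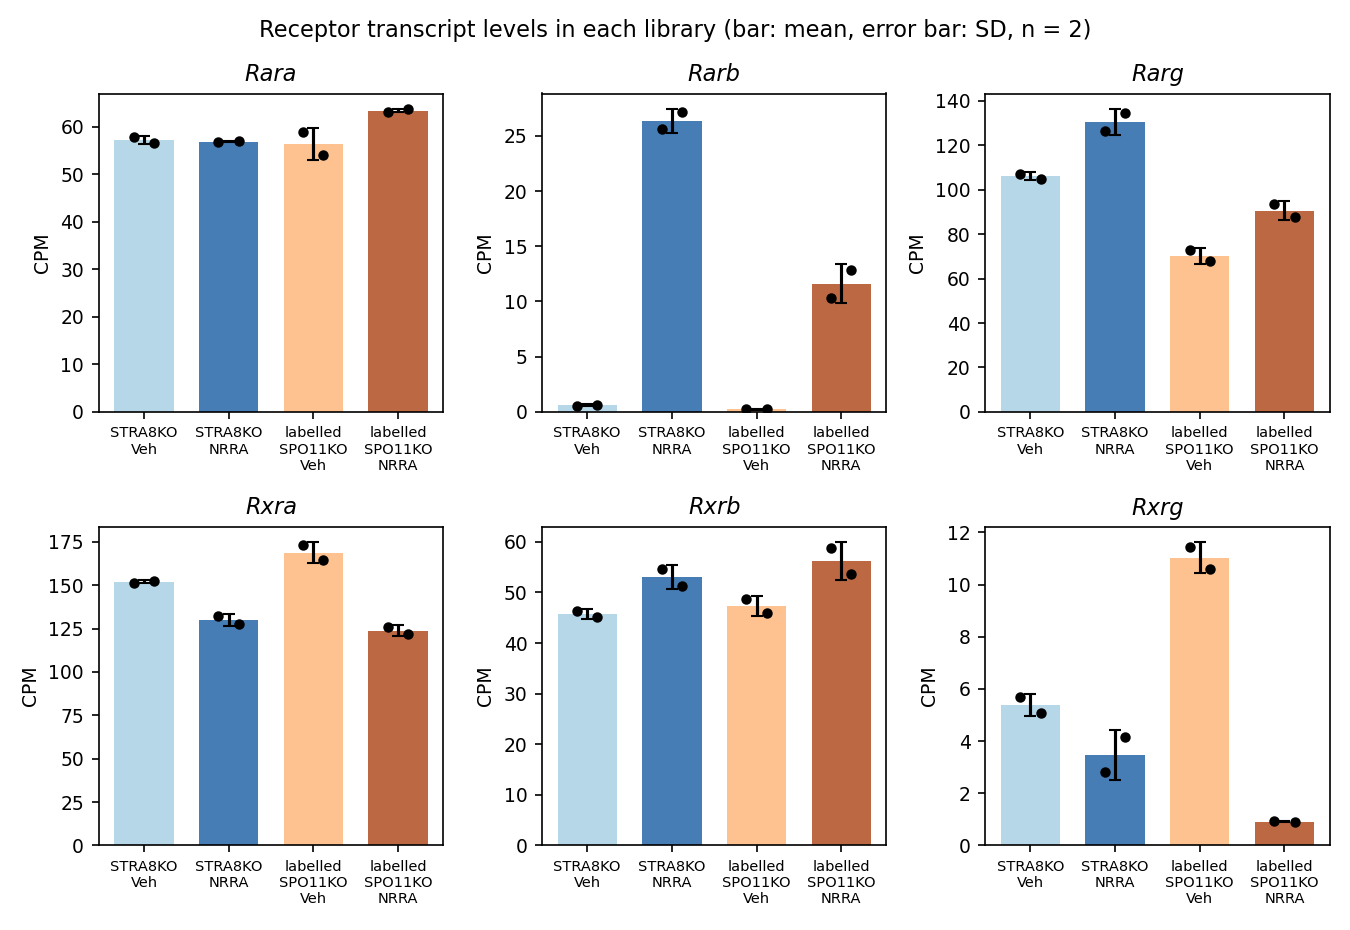
CPM (y axis, each panel with its own scale from 0) of the 6 receptor genes in the 4 groups (x axis). Bars are means, error bars are SD and points are the 2 libraries of a group. Rarb is near 0 in both Veh groups, and Rxrg ranges from 0.907 CPM in NRRA labelled SPO11KO to 11.0 CPM in Veh labelled SPO11KO.

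Of the RXR genes, Rxrg (ENSMUSG00000015843, chr1:167598384-167639623, plus strand) had the lowest level and the widest range. In STRA8KO it was counted 127 and 101 times with vehicle and 58 and 90 times with NRRA. Under the SPO11KO label it was counted 272 and 244 times with vehicle and 24 and 26 times with NRRA. The libraries labelled SPO11KO were thus the highest in Veh and the lowest in NRRA, with the STRA8KO libraries between them, and no 2 groups overlapped. In CPM, STRA8KO went from 5.38 ± 0.42 to 3.48 ± 0.958 (SD, n = 2), and SPO11KO-labelled cultures from 11.0 ± 0.592 to 0.907 ± 0.0276 (SD, n = 2).

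The change of Rxrg under NRRA was -3.60 (log2, SE 0.196, edgeR adjusted p 2.58e-19) in SPO11KO-labelled cultures. In STRA8KO the change was -0.63 (log2, SE 0.185, edgeR adjusted p 0.00538). That call was lost without STRA8KO Veh replicate 1 (-0.54, edgeR adjusted p 0.0753) and without STRA8KO NRRA replicate 1 (-0.38, edgeR adjusted p 0.173), and the value was -0.95 without STRA8KO NRRA replicate 2. The difference of the falls was 2.97 (log2, SE 0.297, edgeR adjusted p 1.26e-10), and Rxrg and Rxra were the 2 of 6 receptors with a called difference, against 24.7% of tested genes. Both differences were positive, as were those called for 14.6% of tested genes, and that of Rxrg was at least 2-fold, as for 5.62%. Leaving out single libraries gave 2.65 to 3.22, and was 2.95 relative to fibroblast markers and 2.97 relative to pan-germ genes. Between the genotypes Rxrg was lower in STRA8KO in Veh by -1.03 (log2, SE 0.141) and higher after NRRA by 1.94 (log2, SE 0.262), both called by edgeR. Relative to the pan-germ genes the difference in Veh was 0.03 (log2, SE 0.152, edgeR adjusted p 0.864).

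Markers of undifferentiated spermatogonia were set beside Rxrg, and moved with it in part. Of 8 (Zbtb16, Gfra1, Ret, Etv5, Id4, Sall4, Lin28a and Uchl1), 5 fell, 2 rose and 1 was not called under NRRA in SPO11KO-labelled cultures, and 7 had a called, positive difference between the genotypes' NRRA effects, against 14.6% of tested genes. In STRA8KO, where Rxrg fell, 6 of the markers rose and 2 fell. Under NRRA 24.7% of tested genes rose and 25.5% fell in SPO11KO-labelled cultures, and 21.4% rose and 20.1% fell in STRA8KO. Ret, the receptor subunit for GDNF, and Etv5, a transcription factor downstream of GDNF, had values of -2.85 and -3.34 (log2) in SPO11KO-labelled cultures. In STRA8KO they were the 2 markers that fell, at -0.69 and -0.53. Together the 8 markers took 0.152% to 0.158% of counts in Veh labelled SPO11KO and 0.101% to 0.106% in NRRA, and 0.069% and 0.0912% in STRA8KO Veh and NRRA. The parts of cell state and of diluted GDNF in the Rxrg values were not tested.

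Rxra (ENSMUSG00000015846, chr2:27676440-27762957, plus strand) had the highest CPM of the RXR genes. It stood at 152 and 153 CPM in STRA8KO Veh and at 132 and 128 CPM in STRA8KO NRRA. It stood at 173 and 165 CPM in Veh labelled SPO11KO and at 126 and 122 CPM in NRRA labelled SPO11KO. Every Veh library lay above every NRRA library, and the 2 NRRA groups lay next to each other. Rxra changed by -0.23 (log2, SE 0.0445, edgeR adjusted p 5.12e-05) in STRA8KO and by -0.45 (log2, SE 0.0434, edgeR adjusted p 1.14e-11) in SPO11KO-labelled cultures. The fall held relative to fibroblast markers (-0.94 and -1.13) and to pan-germ genes (-0.43 and -0.65).

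The fall of Rxra was the smaller one in STRA8KO, by 0.22 (log2, SE 0.0621, edgeR adjusted p 0.0062). Total counts (0.13, edgeR adjusted p 0.126), no filter on low counts (0.16, edgeR adjusted p 0.0969) and leaving out replicate 1 (0.17, edgeR adjusted p 0.079) or 2 (0.13, edgeR adjusted p 0.201) of NRRA labelled SPO11KO each ended that call. In Veh Rxra was lower in STRA8KO by -0.15 (log2, SE 0.0435, edgeR adjusted p 0.0027), but not past the threshold without replicate 1 of Veh labelled SPO11KO (-0.11, edgeR adjusted p 0.0519). It turned to 0.91 relative to pan-germ genes. After NRRA the genotypes differed by 0.07 (log2, 95% interval -0.02 to 0.16, edgeR adjusted p 0.161).

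Rxrb (ENSMUSG00000039656, chr17:34031812-34038399, plus strand) behaved like Rara in its small range. Its levels were 46.4 and 45.1 CPM in STRA8KO Veh and 54.7 and 51.3 CPM in STRA8KO NRRA. They were 48.8 and 46.0 CPM in Veh labelled SPO11KO and 58.8 and 53.6 CPM in NRRA labelled SPO11KO. All NRRA libraries lay above all Veh libraries, and the genotypes overlapped in both media. Rxrb rose with TMM scaling by 0.21 (log2, SE 0.0632, edgeR adjusted p 0.00596) in STRA8KO and by 0.24 (log2, SE 0.0599, edgeR adjusted p 0.000676) in SPO11KO-labelled cultures. Relative to fibroblast markers these rises turned to -0.50 and -0.44, and relative to pan-germ genes they were 0.01 and 0.04, neither called. The first call was lost with DESeq2 (0.19, DESeq2 adjusted p 0.0615), without STRA8KO Veh replicate 2 (0.19, edgeR adjusted p 0.0641) and without STRA8KO NRRA replicate 1 (0.17, edgeR adjusted p 0.0961). The second was 0.37 without replicate 2 of NRRA labelled SPO11KO.

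Set side by side, the genotypes differed in 4 receptors in Veh, against 62.1% of tested genes, and in 4 after NRRA, against 64.3%. In Veh Rarb and Rarg were higher in STRA8KO and Rxrg and Rxra lower, against 31.5% and 30.7% of tested genes. After NRRA Rarb, Rarg and Rxrg were higher and Rara lower, against 35.2% and 29.1%. At least 2-fold differences were those of Rarb and Rxrg in each medium, 2 of 6 against 16.2% and 18.7% of tested genes. Between the genotypes Rxrb differed by -0.05 (log2, 95% interval -0.18 to 0.08) in Veh and by -0.08 (log2, 95% interval -0.20 to 0.04) after NRRA. The latter was called without replicate 2 of Veh (-0.14, edgeR adjusted p 0.0269) or replicate 2 of NRRA (-0.21, edgeR adjusted p 0.0114) labelled SPO11KO. The signs of Rara, Rarg, Rxra, Rxrb and, in Veh, Rxrg differed between the scalings, and the cause was not tested. The feeder and germ cell markers differed about 2-fold between the genotypes in opposite directions. The median of all tested genes moved by about the same amount, to -0.93 (log2) in Veh and -0.89 after NRRA with fibroblast markers, and to 1.06 and 1.13 with pan-germ genes. These comparisons share libraries with the NRRA comparisons.

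**Figure D3:**
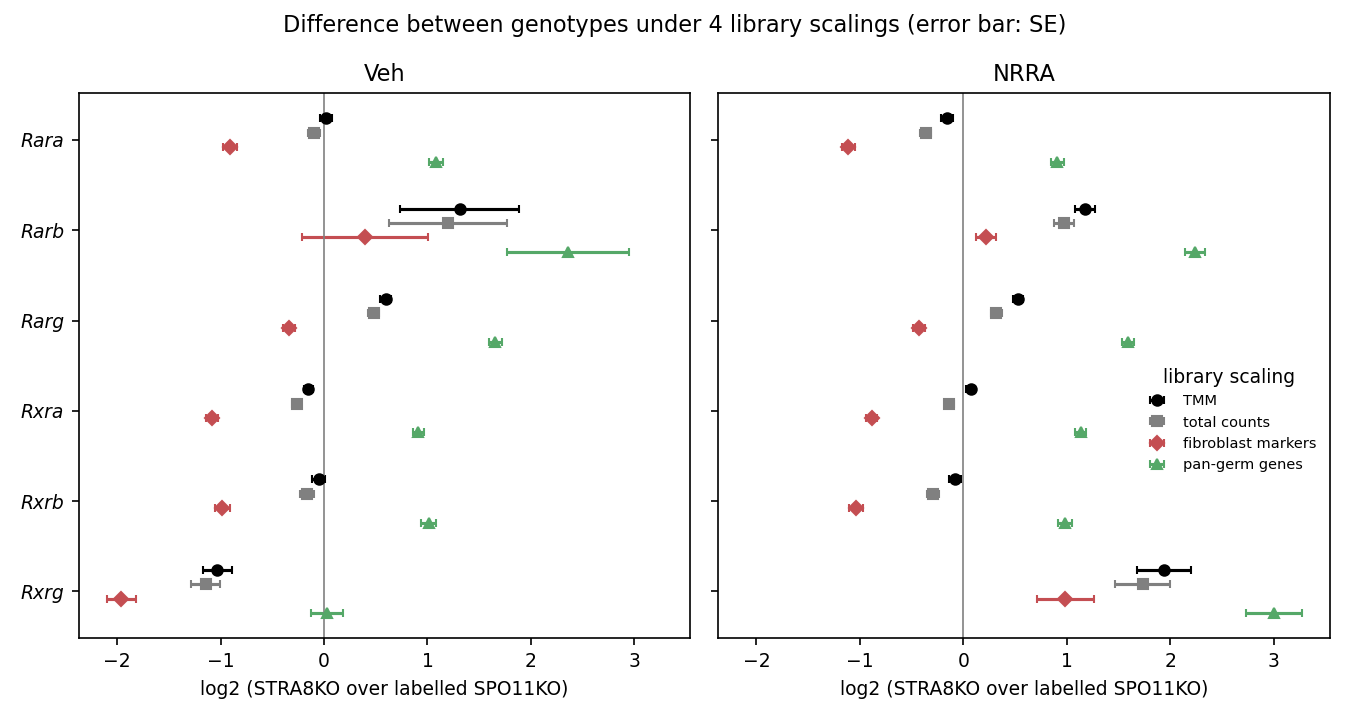
Log2 difference of each receptor gene between STRA8KO and cultures labelled SPO11KO (x axis, error bar SE) in Veh (left) and NRRA (right), with libraries scaled by TMM, total counts, fibroblast markers or pan-germ genes. Rarb stays positive and Rxrg after NRRA stays positive in all 4, while Rara, Rarg, Rxra, Rxrb and, in Veh, Rxrg change sign between the scalings.

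To compare the genes with each other, CPM was divided by the length of the merged exons in kilobases. In STRA8KO Veh the order was Rxra (27.9 CPM per kilobase), Rarg (24.9), Rara (13.1), Rxrb (11.5), Rxrg (2.34) and Rarb (0.113). In Veh labelled SPO11KO the order was the same, from 30.9 for Rxra and 16.5 for Rarg down to 0.0447 for Rarb. Rara and Rxrb, at 12.9 ± 0.783 and 11.9 ± 0.494 CPM per kilobase (SD, n = 2) in those libraries, differed by about their spread. After NRRA Rarb passed Rxrg in both genotypes, with 5.01 against 1.51 CPM per kilobase in STRA8KO and 2.20 against 0.395 in SPO11KO-labelled cultures. Rarg then led in STRA8KO, at 30.6 ± 1.4 against 23.8 ± 0.63 CPM per kilobase for Rxra (SD, n = 2). In SPO11KO-labelled cultures both lay close together, at 21.3 ± 1.03 and 22.7 ± 0.555 CPM per kilobase (SD, n = 2). The length used matters here, since with the longest transcript Rarg led in STRA8KO Veh too, at 35.9 against 31.0. In SPO11KO-labelled cultures after NRRA, Rarg with that length was at 30.7 against 25.2 for Rxra. Rxrb had a higher mean than Rara with that length in every group, as in STRA8KO Veh with 17.4 against 16.9.

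Within the RAR family, Rarg made up 65.3% of the summed CPM per kilobase in STRA8KO Veh and 55.9% in Veh labelled SPO11KO. Rarb went from 0.297% to 10.3% of the family in STRA8KO and from 0.151% to 5.8% in SPO11KO-labelled cultures. The share of Rara went down, from 34.4% to 26.8% and from 43.9% to 38.2%, as the sum with TMM scaling grew around it. Within the RXR family, Rxra held 61.0% to 66.8% in all groups, Rxrb went up from 27.6% to 34.5% and from 25.0% to 38.0%, and Rxrg went down from 5.62% to 3.93% and from 10.1% to 1.06%.

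**Figure D4:**
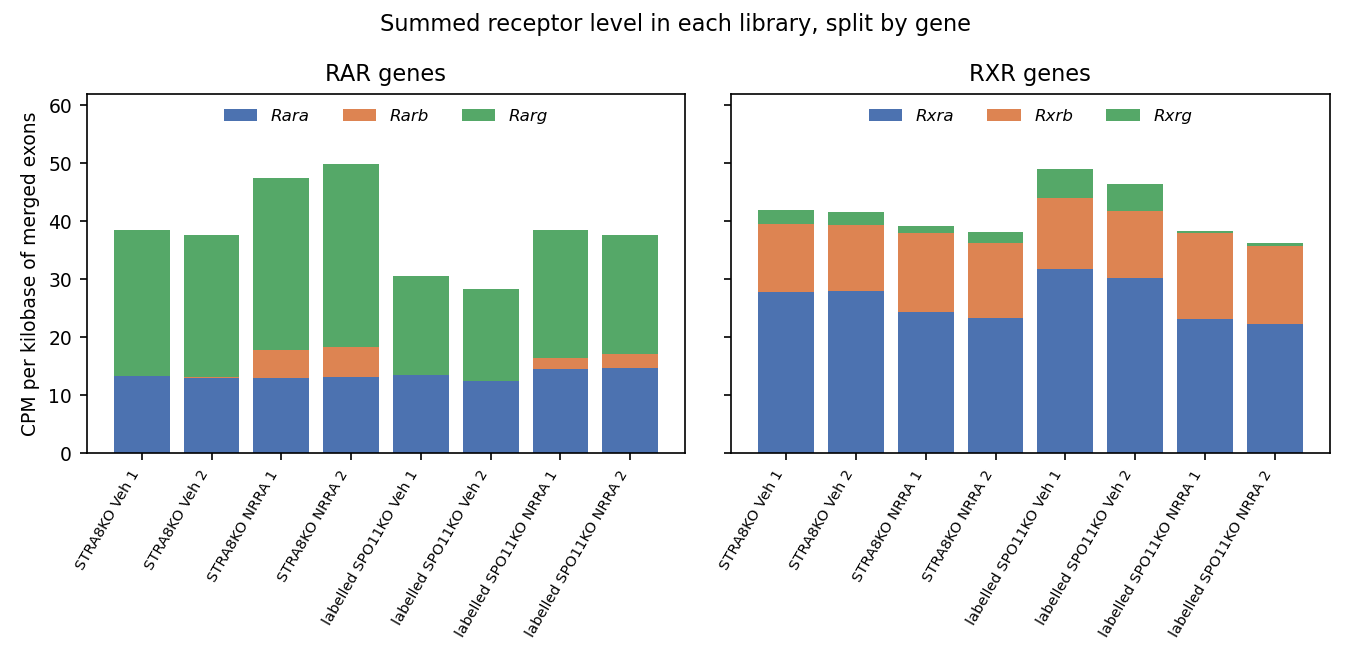
Summed level of the RAR genes (left) and RXR genes (right) in each of the 8 libraries, in CPM per kilobase of merged exons (y axis), split by gene. With TMM scaling the RAR sum lies higher and the RXR sum lower in the NRRA libraries of each genotype, and Rarb is visible only in NRRA.

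The RAR sum was 38.1 ± 0.598 in STRA8KO Veh and 48.7 ± 1.64 CPM per kilobase in STRA8KO NRRA (SD, n = 2). In SPO11KO-labelled cultures it was 29.5 ± 1.61 and 38.0 ± 0.602 CPM per kilobase (SD, n = 2). The RXR sum moved the other way, from 41.7 ± 0.288 to 38.7 ± 0.811 and from 47.6 ± 1.85 to 37.2 ± 1.51 CPM per kilobase (SD, n = 2). Both sums are given with TMM scaling only. Rarg, the largest part of the RAR sum, turned negative under NRRA relative to fibroblast markers, so the rise of that sum depends on the scaling. The ratio of RXR to RAR transcripts does not depend on library scaling, and it was 1.09 ± 0.00962 and 0.795 ± 0.0435 in STRA8KO Veh and NRRA, and 1.62 ± 0.0255 and 0.979 ± 0.0241 in SPO11KO-labelled cultures (SD, n = 2). Libraries of the 4 groups did not overlap in this ratio. With the longest transcript as length the ratios were 0.961, 0.696, 1.42 and 0.885 in that order, and the groups were again apart. No test was run on these sums.

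The genes around the receptors were taken from lists that held 12 retinoic acid response genes, 10 corepressor genes, 10 coactivator genes, 13 partners of RXR and 6 orphan nuclear receptors that bind similar DNA repeats. Of the response genes, 11 rose and 0 fell in STRA8KO, where 21.4% of tested genes rose, and 10 rose and 1 fell in SPO11KO-labelled cultures, where 24.7% rose, with medians of 2.14 and 2.14 (log2) against 0.01 for all tested genes. Cdx1, a homeobox gene, was not called in STRA8KO (2.03 in log2, SE 0.961, 0 to 7 counts). In SPO11KO-labelled cultures Cdx1 was called at 6.81 (log2, SE 1.31), on 0 counts in Veh and 14 to 19 in NRRA. Cyp26a1 rose by 4.64 (log2, SE 0.27) and 4.02 (log2, SE 0.172) and Tgm2, a transglutaminase, by 4.11 and 3.58. Rarb, which was not in the list, rose more than Cyp26a1 and Tgm2, and less than Cdx1 in SPO11KO-labelled cultures. Hoxb1, a homeobox gene, rose by 1.07 in STRA8KO and had -1.42 (log2) in SPO11KO-labelled cultures, the only fall among the 12. It also had the largest called difference of the NRRA effects, 2.49 (log2, SE 0.295), followed by Rec8, which encodes a meiotic cohesin subunit, at 1.30 (log2, SE 0.153). The list was drawn up with results of these libraries known, and is no independent evidence of its direction.

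Corepressor and coactivator genes had medians near that of all genes. Over all tested genes 21.4% rose and 20.1% fell in STRA8KO, and 24.7% rose and 25.5% fell in SPO11KO-labelled cultures. Of the 10 corepressors 2 rose and 3 fell in STRA8KO, and 4 rose and 3 fell in SPO11KO-labelled cultures (medians 0.00 and 0.03 in log2). Hdac2, a histone deacetylase, rose by 0.51 (log2) in SPO11KO-labelled cultures, and its NRRA effects differed by -0.52. Ncor1, a nuclear receptor corepressor, changed by -0.26 in STRA8KO, and Tbl1xr1, a subunit of the corepressor complex, by -0.22 in SPO11KO-labelled cultures. Tbl1x rose by 0.38 and Gps2 by 0.22 in STRA8KO, where Hdac1 changed by -0.18, and Gps2 rose by 0.16 in SPO11KO-labelled cultures.

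Of the 10 coactivators 2 rose and 4 fell in STRA8KO, and 5 rose and 5 fell in SPO11KO-labelled cultures (medians -0.02 and 0.00 in log2). Ncoa1, which encodes the coactivator SRC-1, stood at 14.0 ± 0.874 CPM in Veh and 14.2 ± 2.02 CPM in NRRA of STRA8KO (SD, n = 2). It rose from 8.34 ± 0.17 to 17.8 ± 0.677 CPM (SD, n = 2) in SPO11KO-labelled cultures, by 1.09 (log2, SE 0.106). Kat2b, an acetyltransferase, went the other way, with changes of 0.24 in STRA8KO and -0.84 in SPO11KO-labelled cultures, and a difference of 1.08 (log2, SE 0.135). In STRA8KO Ncoa3 rose by 0.40, and Ep300 and Ncoa6 had -0.44 and -0.34 (log2). In SPO11KO-labelled cultures Ncoa2 rose by 0.39 and Kat2a had -0.64. Values of the genes in all the lists around the receptors, coactivators included, are given with TMM scaling only. The signs of their small changes under other scalings were not examined.

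Among 13 genes for partners of RXR, 11 were tested, and Nr1h4 and Nr1i2 did not pass the filter on low counts. Of these 4 rose and 3 fell in STRA8KO, and 5 rose and 4 fell in SPO11KO-labelled cultures, with medians of 0.20 and 0.22 (log2). Among all tested genes 21.4% rose and 20.1% fell in STRA8KO, and 24.7% rose and 25.5% fell in SPO11KO-labelled cultures. Vdr, the vitamin D receptor, rose from 9.51 ± 0.343 to 42.4 ± 1.76 CPM (SD, n = 2) in STRA8KO and from 6.05 ± 0.617 to 14.5 ± 0.532 CPM (SD, n = 2) in SPO11KO-labelled cultures. These rises were 2.16 (log2, SE 0.0903) and 1.26 (log2, SE 0.112), and they differed by 0.89 (log2, SE 0.153, edgeR adjusted p 1.34e-05). Nr1h3, an oxysterol receptor, rose by 0.81 and 0.62. Nr4a2, an orphan receptor that can pair with RXR, had -2.14 and -1.45 (log2), and the other largest falls were Ppard in STRA8KO (-0.54) and Nr4a1 in SPO11KO-labelled cultures (-0.70). Of the 11, 2 had a called difference of the NRRA effects, Vdr and Nr1i3 (0.56), against 24.7% of tested genes.

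Of the 6 orphan receptors 2 rose and 2 fell in STRA8KO, against 21.4% and 20.1% of tested genes. In SPO11KO-labelled cultures 2 rose and 3 fell, against 24.7% and 25.5%. Nr6a1, the germ cell nuclear factor, rose by 0.49 in STRA8KO and by 0.85 (log2) in SPO11KO-labelled cultures, and Nr2c2 by 0.33 and 0.23. Nr2f1 and Nr2f2, the COUP transcription factors, had -0.65 and -0.67 in STRA8KO and -0.76 and -0.35 in SPO11KO-labelled cultures. The NRRA effects differed by -0.37 for Nr6a1, -0.33 for Nr2f2 and 0.31 for Nr2f6.

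Genes whose log2 CPM ran most like that of each receptor over the 8 libraries were sought among 12979 tested genes. These had a mean log2 CPM of 1 or more and a symbol other than those given to predicted genes or clones. Rarb was followed most closely by Cxcl9 (Pearson r 0.999), Acta2 (0.998) and Ptx3 (0.998), which encode a chemokine, smooth muscle actin and a pentraxin. Rxrg was followed by Adgrl2, Slc9a3r1 and Midn (0.995, 0.994 and 0.994), Rarg by Copz2, Zdhhc7 and Irx1 (0.997, 0.994 and 0.993), and Rxra by Nxph4, Hs3st3b1 and Gars (0.994, 0.992 and 0.992). For Rara they were Socs1, Chmp1a and Mafa (0.965, 0.964 and 0.962), and for Rxrb Arxes1, Snhg5 and Scyl3 (0.967, 0.963 and 0.959). Among the receptors themselves r was 0.903 for Rxra and Rxrg and -0.934 for Rarb and Rxra. With 8 libraries in 4 groups these values mostly describe 4 group means, and libraries share their feeder content, so they carry no test.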

How the data were processed

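Per the labels and the study's methods, poly(A) RNA of SSC cultures was sequenced, and the authors deposited 1 table of raw counts by Ensembl gene identifier, not normalized, with 1 column per library. The submitters' processing notes name STAR 2.6.1c, featureCounts 1.6.4, bcl2fastq and mm10. The labels and the methods name different library kits, and the annotation release, the strand setting and the treatment of reads matching several places are not given in the sources used here. Coordinates and exon lengths came from GENCODE M21 (GRCm38), which held 55240 (99.67%) of the gene identifiers.

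Counts were analysed in R 4.3.3 with edgeR 4.0.16: filterByExpr (99.88% of counts kept), TMM (factors 0.943 to 1.1), and a model of the 4 group means fitted to the 8 libraries together (robust quasi-likelihood). Its 5 contrasts set NRRA against Veh within a genotype, the genotypes against each other within a medium (STRA8KO minus SPO11KO), and tested their interaction, two-sided with Benjamini-Hochberg adjustment over all tested genes. The script was tested on simulated data. Log2 CPM for correlations used a prior count of 2. Chi-square values between the libraries of a group had means of 1.86 to 4.12 per gene, which is more than counting noise alone gives. The libraries were counted as separate samples, though such values cannot tell separate cultures from separate preparations of 1 culture. The study calls its sequencing replicates independent biological ones. It also states in general that replicates came from separate mice, tissues or cells, without saying which applies to these cultures, and the labels do not say whether a genotype had more than 1 derived culture line. The p-values measure the spread between these libraries.

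The alternatives were DESeq2 1.42.0 (the tool the study names) and its size factors, total counts, scaling by fibroblast markers or pan-germ genes, other filters on low counts, a fit to no more than the 4 libraries compared, a replicate block, and leaving out each library. Named besides the receptors were, per list, at most 2 called genes with the largest rise and 2 with the largest fall per NRRA comparison and interaction, at a mean log2 CPM of 1 or more, and the 3 most correlated genes per receptor. Top2b, the spermatogonial, fibroblast and Sertoli cell markers named and gene levels beyond that rule were chosen after their values were seen. The receptors and all lists were chosen with earlier results of these data known. A few genes of the lists are counted but not reported here by name.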

Additional observations from a re-analysis of the deposited data

Results flagged for a closer look

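For 2 receptors the test of the interaction called a difference of the NRRA effect between the genotypes. For Rxrg the difference was 2.97 (log2, SE 0.297, edgeR adjusted p 1.26e-10), and both STRA8KO NRRA libraries lay above both NRRA libraries labelled SPO11KO while the order in Veh was the opposite. For Rxra the difference was 0.22 (log2, SE 0.0621, edgeR adjusted p 0.0062). Without replicate 2 of NRRA labelled SPO11KO it was 0.13 (edgeR adjusted p 0.201), and over all libraries left out in turn it ranged from 0.13 to 0.25.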

How the results depend on the processing

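Under NRRA the rise of Rarb and the falls of Rxra and Rxrg kept their direction in both genotypes under every alternative listed above. The interaction of Rxrg did so in all but the fit of only the 4 libraries, which has no interaction. All kept their call except Rxrg in STRA8KO when a library was left out. Scaling by fibroblast markers moved the median of all tested genes by -0.70 (STRA8KO, NRRA), -0.67 (labelled SPO11KO, NRRA), -0.93 (genotypes, Veh) and -0.89 (genotypes, NRRA), and turned the sign of Rarg and Rxrb under NRRA in STRA8KO (-0.41 and -0.50), of Rara, Rarg and Rxrb under NRRA in SPO11KO-labelled cultures (-0.52, -0.32 and -0.44), of Rara and Rarg between genotypes in Veh (-0.91 and -0.34) and of Rarg and Rxra after NRRA (-0.43 and -0.89). It gave 2 receptors with at least 2-fold changes under NRRA in STRA8KO instead of 1. Of all tested genes it called 15329 there, against 8548 with TMM. Pan-germ scaling turned Rara under NRRA in SPO11KO-labelled cultures (-0.034), Rxra, Rxrb and Rxrg between genotypes in Veh (0.91, 1.01 and 0.03) and Rara and Rxrb after NRRA (0.91 and 0.98), and gave 4 receptors with at least 2-fold differences between genotypes in each medium instead of 2. Total counts turned Rara in Veh (-0.094) and Rxra after NRRA (-0.14) and left 1 such receptor in each medium, and no filter on low counts left 1 in Veh. A fit of only the 4 libraries turned Rxra between genotypes after NRRA (-0.004). The cause of these changes was not tested.

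With single libraries left out, values ran from -0.024 to 0.007 for Rara under NRRA in STRA8KO, from -0.023 to 0.084 for Rara between genotypes in Veh, from -0.009 to 0.098 for Rxra between genotypes after NRRA, and from -0.357 to 0.006 and from -0.171 to 0.012 for the interactions of Rarb and Rxrb. The library left alone in its group is then assumed to vary like the other groups. Called receptors numbered 3 to 5 for NRRA in STRA8KO (3 without STRA8KO NRRA replicate 1) and 2 to 4 between genotypes in Veh (2 without replicate 1 of Veh labelled SPO11KO). Those with at least 2-fold differences numbered 0 to 2 in Veh (0 without STRA8KO Veh replicate 2 or replicate 1 of Veh labelled SPO11KO, and 1 without STRA8KO Veh replicate 1, STRA8KO NRRA replicate 2 or replicate 2 of Veh labelled SPO11KO) and 1 to 2 after NRRA (1 without replicate 1 of NRRA labelled SPO11KO).

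Groups share replicate numbers 1 and 2, and deviations of same-numbered libraries correlated between -0.071 and 0.138. The highest value was that between Veh and NRRA labelled SPO11KO. Such values cannot show whether same-numbered libraries shared a culture, and the main fit did not pair them. With the replicate block, all 30 receptor results kept their direction and call, and the called receptors were 5, 6, 4, 4 and 2 over the 5 comparisons. Lengths of the longest transcripts raised all levels per kilobase. Rarb rested on 5 to 13 counts in Veh.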
